A study of Homo sapiens with 8 samples.

Results

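CEACAM1, CEACAM5, CEACAM6, CEACAM7, CEACAM19 and DPEP1 were followed by RNA-seq in HCT116 colorectal cancer cells before and after depletion of UHRF1. The members are the table entries that carry these 6 gene names, of 60649 gene identifiers and 19960 protein-coding genes measured in every library. They were selected on the TPM values of these same libraries and the comparisons made from them, so their levels and differences are given as descriptions and carry no p-values.

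HCT116 is an established human colorectal carcinoma line. UF1hypo is a clone derived from it in which exon 4 of 1 UHRF1 allele was excised, and all UF1hypo values therefore come from 1 clone. Short hairpin RNAs were delivered by lentivirus to both HCT116 and UF1hypo cells, which were kept under puromycin as stable pools. The hairpin was either shScr, the control, or shUHRF1, which targets UHRF1. This gave 4 groups of 2 libraries each: HCT116 shScr, HCT116 shUHRF1, UF1hypo shScr and UF1hypo shUHRF1. The hairpin was thus added to wild-type UHRF1 in HCT116 and to a heterozygous background in UF1hypo. The sources used here do not say whether the libraries of a group came from separate cultures, so every p-value measures the spread between these libraries only, which may be technical.

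UHRF1 reads hemimethylated DNA behind the replication fork and brings the methyltransferase DNMT1 to it, which keeps methylated promoters silent through cell division. The CEACAM proteins are immunoglobulin-like adhesion molecules, most of them encoded in a cluster on chromosome 19. CEACAM5 (carcinoembryonic antigen), CEACAM6 and CEACAM7 are held in the outer membrane leaflet by a glycosylphosphatidylinositol (GPI) anchor and coat the apical surface of mature colonocytes, and CEACAM5 is the serum marker used to follow colorectal cancer. CEACAM1 spans the membrane and carries inhibitory tyrosine motifs that recruit the phosphatases PTPN6 and PTPN11, and CEACAM19 is a less studied transmembrane relative. DPEP1 (membrane dipeptidase) is a GPI-anchored zinc enzyme that converts leukotriene D4 to leukotriene E4 and splits the cysteinylglycine left by glutathione breakdown, and it is a known colorectal tumour gene.

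The regions upstream of these genes are shown because UHRF1 acts through methylated CpG sites, and the genes differ in how many they hold there. RefSeq windows (GRCh38.p14) of the 250 bases before each annotated start were found for 5 of the 6 members. No window was found for CEACAM19. Over all 34943 such windows the median was 11 CpG sites, with quartiles of 3 and 23. The CEACAM1 window (chr19:42528482-42528731, minus strand) held 1 CpG, CEACAM5 (chr19:41708376-41708625, plus strand) 2, CEACAM6 (chr19:41755280-41755529, plus strand) 5 and CEACAM7 (chr19:41688271-41688520, minus strand) 1. DPEP1 has 4 annotated RefSeq starts with 12, 5, 9 and 3 CpG sites in their windows. The first of these windows (chr16:89616635-89616884, plus strand), which holds the most CpG sites, is shown. The main DPEP1 transcript of GENCODE version 44 starts at chr16:89613642, so none of the 4 windows lies before that start. Which start is used in these cells was not tested. The windows are printed 5′ to 3′ on the strand of the gene, with CpG sites in capitals.
CEACAM1: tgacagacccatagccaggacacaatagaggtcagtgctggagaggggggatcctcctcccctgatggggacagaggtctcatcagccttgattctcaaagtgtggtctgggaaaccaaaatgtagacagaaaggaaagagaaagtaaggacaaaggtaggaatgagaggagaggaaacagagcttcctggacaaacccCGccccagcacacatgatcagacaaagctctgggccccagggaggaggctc
CEACAM5: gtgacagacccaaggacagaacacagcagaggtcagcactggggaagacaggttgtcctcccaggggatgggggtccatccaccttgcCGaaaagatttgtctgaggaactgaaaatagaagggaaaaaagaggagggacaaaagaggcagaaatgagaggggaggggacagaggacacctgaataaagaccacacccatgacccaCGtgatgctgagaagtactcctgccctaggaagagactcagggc
CEACAM6: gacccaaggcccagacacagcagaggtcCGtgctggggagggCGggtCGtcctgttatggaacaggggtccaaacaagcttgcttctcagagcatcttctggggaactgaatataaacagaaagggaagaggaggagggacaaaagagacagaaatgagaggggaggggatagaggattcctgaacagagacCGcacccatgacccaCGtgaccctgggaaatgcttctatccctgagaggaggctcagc
CEACAM7: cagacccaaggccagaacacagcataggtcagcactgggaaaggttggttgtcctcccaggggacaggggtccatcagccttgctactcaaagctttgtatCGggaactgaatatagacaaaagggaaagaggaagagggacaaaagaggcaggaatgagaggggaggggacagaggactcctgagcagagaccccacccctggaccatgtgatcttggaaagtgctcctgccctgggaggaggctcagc
DPEP1: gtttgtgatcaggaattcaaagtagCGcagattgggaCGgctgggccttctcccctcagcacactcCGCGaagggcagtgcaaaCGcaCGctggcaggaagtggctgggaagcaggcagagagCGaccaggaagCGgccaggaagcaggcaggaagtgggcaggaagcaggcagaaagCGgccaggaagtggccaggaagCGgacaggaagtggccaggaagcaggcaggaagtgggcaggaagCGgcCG

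The 4 CEACAM windows resembled each other. Pairwise identity after global alignment ran from 64.4% for CEACAM1 with CEACAM5 to 80.5% for CEACAM5 with CEACAM7. The E-box CACGTG, the letters bound by USF factors and the same on both strands, was present in CEACAM5 (first base at -46 from the start) and in CEACAM6 (at -45) and in no other member window, against 6.32% of all windows. The letters GGGCGG of a GC box, searched on both strands, were found in CEACAM1 and CEACAM6 and in 42.5% of all windows, and a GC box always holds a CpG site. A match is a description of the letters and not a bound site. DNA methylation was not analysed here.

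UHRF1 itself (chr19:4903080-4962154) was measured first as the check of the labels. Its TPM was 87.5 and 98.4 with shScr and 31.7 and 32.7 with shUHRF1 in HCT116, and 47.3 and 50.6 with shScr and 34.1 and 21.1 with shUHRF1 in UF1hypo. Both knockdown groups lay below their shScr controls with no overlap. The difference of log2(TPM + 1) was -1.50 in HCT116 (SE 0.222, limma with Benjamini-Hochberg adjustment, adjusted p = 0.0564) and -0.84 in UF1hypo (SE 0.221, adjusted p = 0.0406). Neither passed the rule used for calls here, an adjusted p below 0.05 together with an absolute log2 difference above 1. The adjusted p over the alternatives ran from 2.34e-05 to 0.608 in HCT116 and from 0.00163 to 0.200 in UF1hypo. The rule was passed in HCT116 in 5 of 18 alternatives, which were the pseudocount of 0.1, adjustment for GC content and length, the 4 libraries alone, and the fits without either UF1hypo shUHRF1 library. In UF1hypo it was passed in 2 of 19, after adjustment for GC content and length and without UF1hypo shUHRF1 replicate 1.

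The tables give coverage, FPKM and TPM (transcript abundance scaled for length and to a total of 1000000 in each library) and no read counts, so the number of reads behind a value is unknown. Aligned bases ranged from 5.42 to 7.83 gigabases a library. The UF1hypo shUHRF1 libraries stood apart from each other. Pearson's r between them across genes was 0.956, against 0.991 to 0.992 in the other groups, and their difference followed transcript GC content (Spearman's rho 0.814 across genes, which are not independent replicates). The same rho was -0.508 between the UF1hypo shScr libraries and between -0.068 and -0.042 in HCT116. Values that rest on this group are therefore given without each of its libraries as well. The epithelial markers EPCAM, CDH1, KRT8, KRT18 and KRT19 were all above 1 TPM in every group, and their summed TPM ran from 4341 to 5590 in HCT116 and from 8799 to 12687 in UF1hypo. Of these, KRT8, KRT18 and KRT19 were called higher in the clone. The calls of KRT8 and KRT19 were lost without any 1 library of either shScr group, and all 3 after adjustment for GC content and length. Of 12 leukocyte and granulocyte markers, 2 exceeded 1 TPM in any library, and FCGR3B was listed at 0 in all. Their sum was 1.61 to 2.16 outside UF1hypo shUHRF1 and 2.51 to 4.30 within it. PTPRC, which defines leukocytes, was listed at 0 in 6 libraries and at most at 0.0728 in the others. The 4 endothelial markers summed to at most 0.626. The 5 fibroblast markers summed to 21.2 to 28.9 outside UF1hypo shUHRF1 and 38.3 to 66.2 within it, nearly all of it COL1A1, and the part of any such shift in the results below was not tested. Fewer cells expressing a gene and less RNA of it per cell cannot be told apart in these bulk samples.

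Of the 6 members, 3 were measured above 1 TPM: DPEP1, CEACAM19 and CEACAM1. CEACAM5, CEACAM6 and CEACAM7, the GPI-anchored CEACAM proteins of the mature colonocyte, were at or near 0 in all 8 libraries. CEACAM5 (chr19:41708585-41730433) was listed at 0 in 6 libraries and at 0.0514 and 0.132 in replicate 1 of UF1hypo shScr and of UF1hypo shUHRF1. CEACAM6 (chr19:41750977-41772211) was above 0 only in HCT116 shUHRF1 replicate 2, at 0.0343. CEACAM7 (chr19:41673303-41706976) was listed at 0 throughout. None of these 3 genes reached the 1 TPM needed to be tested in any comparison, so no change in them was detectable at this depth. The E-box shown above in CEACAM5 and CEACAM6 sat upstream of genes with almost no measured RNA here. USF1, 1 of the factors that bind it, lay between 51.1 and 92.4 TPM, and its part in these levels was not tested.

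**Figure D1:**
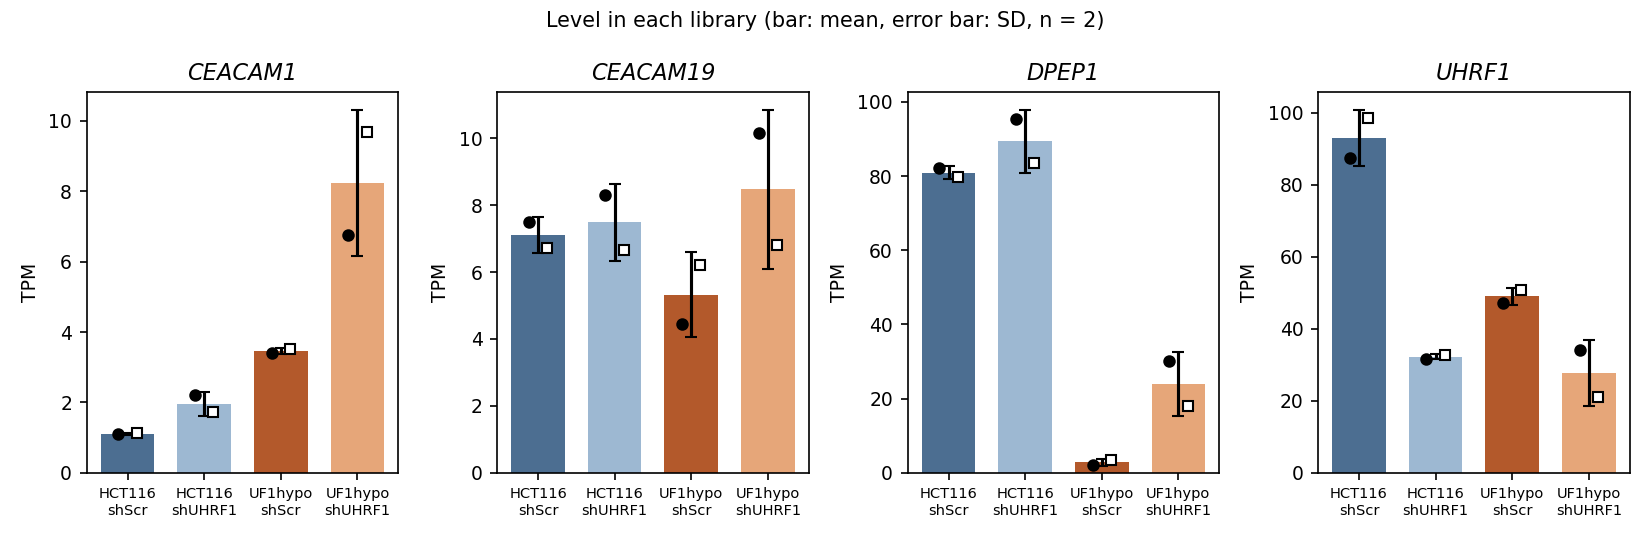
TPM (linear axes from 0) of CEACAM1, CEACAM19, DPEP1 and UHRF1 in the 4 groups. Bars are means and error bars SD of 2 libraries, filled circles are replicate 1 and open squares replicate 2. DPEP1 lies near 80 to 95 in HCT116 and at 2.19 to 30.1 in UF1hypo, while CEACAM1 is at 1.09 to 2.20 in HCT116 and 3.40 to 9.70 in UF1hypo.

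DPEP1 (ENSG00000015413.9, chr16:89613308-89638456, plus strand) was the most abundant member in HCT116 cells and far lower in the clone. Its TPM was 82.2 and 79.7 with shScr and 95.3 and 83.4 with shUHRF1 in HCT116, and 2.19 and 3.40 with shScr and 30.1 and 17.9 with shUHRF1 in UF1hypo. The HCT116 libraries all lay far above every UF1hypo library, and within UF1hypo both shUHRF1 libraries lay above both shScr libraries. The mean was 81.0 ± 1.77 (SD, n = 2) in HCT116 shScr and 2.79 ± 0.849 (SD, n = 2) in UF1hypo shScr, which is 3.45% of the HCT116 level. On the log2(TPM + 1) scale the clone was lower by a difference of -4.45 (SE 0.261), the most negative of all 12856 genes tested in that comparison.

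With shUHRF1, DPEP1 in UF1hypo reached 24.0 ± 8.62 TPM (SD, n = 2), 8.60 times the UF1hypo shScr mean and 26.9% of the HCT116 shUHRF1 mean of 89.4 ± 8.43 (SD, n = 2). The log2 difference was 2.70 (SE 0.263), the 137th largest increase of 13620 genes. It was 2.34 without UF1hypo shUHRF1 replicate 1 and 3.05 without replicate 2. In HCT116 the same hairpin left the mean at 110.4% of the control, a log2 difference of 0.14 (SE 0.261). The 2 HCT116 groups did not overlap, but their means differed by 8.42 TPM, about the SD of 8.43 in HCT116 shUHRF1. The knockdown effects differed by 2.56 (SE 0.371), and by 2.20 and 2.92 without UF1hypo shUHRF1 replicate 1 and replicate 2. In order of level, HCT116 shUHRF1 and HCT116 shScr were neighbours that did not differ beyond their spread, and UF1hypo shUHRF1 and UF1hypo shScr followed, each separated from the next by more than the larger SD.

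The scale of the DPEP1 level depends on the quantity used. Its per-base coverage, scaled to the same total as TPM, averaged 5.72 ± 0.112 (SD, n = 2) in HCT116 shScr, far below the TPM of 81.0. The ratio of coverage to FPKM, divided by the highest such ratio of any gene above 1 FPKM in the library, was 0.0637 to 0.0808 for DPEP1, against 0.276 to 0.364 for CEACAM1 and 0.332 to 0.366 for CEACAM19. What sets this ratio was not tested, since the deposited tables give genes and not transcripts. The folds between groups were close on both scales, with a UF1hypo shUHRF1 to shScr ratio of 8.60 in TPM and 9.43 in coverage, and an HCT116 shScr to UF1hypo shScr ratio of 29.0 in TPM and 29.1 in coverage. On the log2 scale with 1 added, the smaller coverage values gave smaller differences, 1.23 for the knockdown in UF1hypo and -2.49 for the clone. The order between genes depended on the scale. In UF1hypo shUHRF1 DPEP1 exceeded CEACAM1 in TPM (24.0 against 8.23) and lay below it in coverage (1.86 against 2.75).

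CEACAM1 (ENSG00000079385.23, chr19:42507304-42561234, minus strand) was low in HCT116 and higher in the clone, the opposite of DPEP1. Its TPM was 1.09 and 1.13 with shScr and 2.20 and 1.72 with shUHRF1 in HCT116, and 3.40 and 3.53 with shScr and 6.76 and 9.70 with shUHRF1 in UF1hypo. No groups overlapped, and neighbouring groups in this order differed by more than the larger SD of the pair. UF1hypo shScr averaged 3.46 ± 0.0920 (SD, n = 2), 3.12 times the HCT116 shScr mean of 1.11 ± 0.0251 (SD, n = 2). The log2 difference between the clone and HCT116 was 1.08 (SE 0.236). With shUHRF1 the mean in UF1hypo was 2.38 times the control, at 8.23 ± 2.08 (SD, n = 2), and the log2 difference was 1.03 (SE 0.226). It was 1.26 without UF1hypo shUHRF1 replicate 1 and 0.80 without replicate 2. In HCT116 the mean was 1.77 times the control, with a log2 difference of 0.49 (SE 0.237). The knockdown effects differed by 0.54 (SE 0.319), and by 0.78 and 0.31 without UF1hypo shUHRF1 replicate 1 and replicate 2. The CEACAM1 level is near the added 1 in HCT116, so these log2 differences understate the folds.

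Reads from small parts of CEACAM1 can be hard to separate from those of other genes. The antisense transcript LIPE-AS1 (chr19:42397114-42652367) runs through the locus and shares 185 exon bases with it, 3.35% of the CEACAM1 exon bases. LIPE-AS1 lay between 2.67 and 8.18 TPM, and the counting is not stated to use strand. Of the 3392 stretches of 100 bases in the main CEACAM1 transcript, 18 also occur in CEACAM3, which was listed at 0. The part of LIPE-AS1 in the CEACAM1 values was not tested.

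CEACAM19 (ENSG00000186567.13, chr19:44662278-44684359, plus strand) had the narrowest range of the 3 measured members. Its TPM was 7.50 and 6.72 with shScr and 8.30 and 6.67 with shUHRF1 in HCT116, and 4.44 and 6.22 with shScr and 10.1 and 6.79 with shUHRF1 in UF1hypo. UF1hypo shUHRF1 overlapped HCT116 shUHRF1, which overlapped HCT116 shScr, and only UF1hypo shScr lay below its neighbour in the order, by 1.78 TPM against a larger SD of 1.26. The log2 difference was -0.37 (SE 0.254) for the clone against HCT116, 0.06 (SE 0.254) for the knockdown in HCT116 and 0.57 (SE 0.254) for the knockdown in UF1hypo. The last was 0.32 without UF1hypo shUHRF1 replicate 1 and 0.83 without replicate 2. CEACAM19 shares 121 exon bases, 2.34% of its own, with PVR on the same strand, and PVR (poliovirus receptor) was more abundant, between 51.0 and 96.6 TPM.

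Counts of calls place these values among all genes, and since the same values served to choose the members, nothing is read from the counts. In the knockdown in HCT116, 0 of the 3 members tested were called by limma, and 0 had an unadjusted p below 0.05, where 0.0708% of 12704 genes were called. In the knockdown in UF1hypo, CEACAM1 and DPEP1 were called higher, where 7.39% of 13620 genes were called higher and 1.14% lower. DPEP1 alone was called in the difference of the knockdown effects, where 4.54% of 13781 genes were called higher and 0.559% lower. Those 625 higher and 77 lower calls became 785 and 264 with a correction for GC content and length. For the clone against HCT116, CEACAM1 was called higher and DPEP1 lower, where 2.59% of 12856 genes were called higher and 0.949% lower. The DPEP1 calls in the knockdown in UF1hypo and in the clone held under all 19 and all 18 alternatives. The DPEP1 call in the difference was lost with coverage in place of TPM (log2 difference 1.097) and without HCT116 shScr replicate 1, HCT116 shUHRF1 replicate 1 or HCT116 shUHRF1 replicate 2, where the log2 difference was 2.54, 2.65 and 2.46 in that order. The CEACAM1 call in UF1hypo held under 11 of 19 alternatives and its call in the clone under 8 of 18. The former was lost without UF1hypo shScr replicate 1 or 2 or UF1hypo shUHRF1 replicate 2, and the latter without any 1 library of HCT116 or of UF1hypo shScr. The comparisons share libraries: UF1hypo shScr is the control of the knockdown in UF1hypo and the test group of the clone comparison.

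The other CEACAM genes were close to silent. CEACAM3, CEACAM4 and CEACAM18 were listed at 0 in all 8 libraries. CEACAM8, a granulocyte adhesion molecule, reached at most 0.0552 TPM, CEACAM16, a protein of the inner ear, 0.0688, and CEACAM20 0.566. CEACAM21 reached 1.15 in UF1hypo shUHRF1 replicate 2 and at most 0.236 elsewhere. It was the only gene of the list with enough signal to be tested, in the knockdown in UF1hypo (log2 difference 0.40, SE 0.274, adjusted p = 0.386) and in the difference (0.51, SE 0.387, adjusted p = 0.557), and 0 of 1 was called by limma or had an unadjusted p below 0.05 in either.

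The pregnancy-specific glycoproteins are secreted placental relatives of the CEACAM proteins encoded beside CEACAM1. Of the 10 genes, 2 could be tested, both in the knockdown in UF1hypo and in the difference, and both passed because of the group in which they were high. PSG9 was listed at 0 in 6 libraries and at 2.02 and 2.33 TPM in UF1hypo shUHRF1, and rose by 1.67 on the log2 scale (SE 0.183, adjusted p = 0.000769, 6.53e-05 to 0.0247 over the alternatives). PSG4 was listed at 0 in the same 6 libraries and at 1.16 and 1.87 in UF1hypo shUHRF1, and rose by 1.32 (SE 0.206, adjusted p = 0.00429, 0.000935 to 0.0602). Both log2 values depend on the added 1, since the control group was at 0. The PSG9 call was lost with FPKM, and the PSG4 call with FPKM and with the 4 libraries alone. The other 8 genes stayed at or below 1 TPM in all libraries. The log2 difference in UF1hypo was 1.74 for PSG9 and 1.52 for PSG4 without UF1hypo shUHRF1 replicate 1, and 1.60 and 1.11 without replicate 2.

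DPEP1 has 2 relatives, DPEP2 and DPEP3, encoded beside each other elsewhere on chromosome 16. DPEP2, which also hydrolyses leukotriene D4, was at most 0.0506 TPM in 6 libraries and at 1.07 and 1.34 in UF1hypo shUHRF1. Its log2 difference in UF1hypo was 1.14 (SE 0.185, adjusted p = 0.00517, 0.000346 to 0.0712 over the alternatives). DPEP3, a testis-enriched member, was at 0.222 in HCT116 shScr replicate 1, at 0 in 5 other libraries, and at 2.22 and 0.560 in UF1hypo shUHRF1. Its log2 difference was 1.16 (SE 0.320, adjusted p = 0.0471, 0.00106 to 0.198 over the alternatives), and the call was lost when any 1 library of HCT116 or of UF1hypo shScr was left out. All 3 dipeptidase genes were thus higher in UF1hypo with shUHRF1 than with shScr, but DPEP1 alone was expressed in HCT116. DPEP2 and DPEP3 entered the test only through the group in which they were high. The DPEP2 call was lost with FPKM, with the GC content and length correction and with the 4 libraries alone. The log2 difference of DPEP2 was 1.23 without UF1hypo shUHRF1 replicate 1 and 1.05 without replicate 2, and DPEP3 was too low to test without replicate 1 and at 1.69 without replicate 2.

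The enzymes that act before and after DPEP1 were followed as a list of 21 genes of leukotriene and glutathione turnover. In the knockdown in UF1hypo 18 were tested, 5 rose and 1 fell, against 7.39% called higher and 1.14% called lower of all genes tested. Of the 5, GGT6 and ANPEP entered the test only through UF1hypo shUHRF1, so they had to differ. The genes that rose included GGT1, GGT5 and GGT6 of the gamma-glutamyltransferase family. The enzymes GGT1 and GGT5 cut leukotriene C4 to leukotriene D4, the substrate of DPEP1, and start the breakdown of extracellular glutathione. GGT7, of the same family, was not called. Its TPM in UF1hypo was 15.1 and 16.8 with shScr and 37.7 and 27.3 with shUHRF1 (log2 difference 0.96, SE 0.212, adjusted p = 0.0202). GGT1 was at 12.0 and 9.84 TPM in UF1hypo shScr and at 58.8 and 47.1 in UF1hypo shUHRF1, with a log2 difference of 2.17 (SE 0.361, adjusted p = 0.00563, 0.00177 to 0.0458 over the alternatives). GGT5 was at 3.37 and 3.42 in UF1hypo shScr and at 21.4 and 10.64 in UF1hypo shUHRF1 (log2 difference 1.88, SE 0.326, adjusted p = 0.00705, 0.00135 to 0.0698). Both genes stood clear of their controls in every library. The GGT5 call was lost with the pseudocount of 0.1, with the 4 libraries alone and without UF1hypo shScr replicate 1. GGT6 rose by 1.19 (SE 0.294, adjusted p = 0.0321, 0.00131 to 0.182), from at most 0.125 to 2.30 and 0.772 TPM, and its call was lost when any 1 library of HCT116 or of UF1hypo shScr was left out. Without UF1hypo shUHRF1 replicate 1 and replicate 2 in turn, the log2 difference was 2.02 and 2.33 for GGT1 and 1.40 and 2.35 for GGT5, while GGT6 was too low to test without replicate 1 and at 1.64 without replicate 2. The GGT6 call was also lost with FPKM, with the GC content and length correction, with the 4 libraries alone and with coverage in place of TPM.

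CHAC1, a cytosolic enzyme that degrades glutathione and is induced by the integrated stress response, followed the clone and the hairpin in a pattern partly like that of DPEP1. It was at 77.6 and 76.0 TPM with shScr and 33.8 and 29.1 with shUHRF1 in HCT116, and 16.8 and 18.1 with shScr and 75.2 and 68.2 with shUHRF1 in UF1hypo. It fell in HCT116 by 1.27 on the log2 scale (SE 0.162, adjusted p = 0.0437, 9.61e-05 to 0.530 over the alternatives) and rose in UF1hypo by 1.98 (SE 0.158, adjusted p = 0.000136, 3.43e-05 to 0.00927). The fall in HCT116 held under 8 of 18 alternatives, and leaving out any 1 library of HCT116 or of UF1hypo shScr ended the call. The clone was lower than HCT116 by a log2 difference of -2.08 (SE 0.162, adjusted p = 0.000208, 2.21e-07 to 0.00667). Of the further calls in UF1hypo, named after their values were seen, ANPEP, an aminopeptidase that splits cysteinylglycine as well, rose by 1.12 (SE 0.234, adjusted p = 0.0164, 0.00409 to 0.116). LTA4H, which turns leukotriene A4 to leukotriene B4, fell by 1.04 (SE 0.207, adjusted p = 0.0130, 0.000171 to 0.110), from 160.7 and 146.0 to 59.0 and 92.6 TPM. The ANPEP call was lost without either UF1hypo shScr library, and the LTA4H call without either of these or UF1hypo shUHRF1 replicate 1. Both calls were also lost with the GC content and length correction and with the 4 libraries alone. Without UF1hypo shUHRF1 replicate 1 and replicate 2 in turn, the log2 difference in UF1hypo was 1.91 and 2.04 for CHAC1 and -0.72 and -1.36 for LTA4H. That of ANPEP was 1.38 without replicate 1, and without replicate 2 the gene was too low to test. In HCT116, CHAC1 was the only call among 15 genes tested, and 3 had an unadjusted p below 0.05. The share called of all genes there was 0.0708%. In the difference of the knockdown effects, CHAC1 was the only call by limma among 18 genes tested. In that comparison 4.54% of all genes were called higher and 0.559% lower. GGT1 differed there by 1.79 (adjusted p = 0.0940) and GGT5 by 1.30 (adjusted p = 0.174). GGT6, ANPEP and LTA4H were not called there either, so their responses were not shown to differ between the lines. In the clone against HCT116, GGT5 was higher (log2 difference 1.98, SE 0.332, adjusted p = 0.0113, 0.000133 to 0.101), CHAC1 was lower, and these were the only calls among 16 genes tested. The GGT5 call there was lost without any 1 library of either shScr group. GGT5 was at 0.238 and 0 TPM in HCT116 shScr. It entered that test only through UF1hypo shScr, where it was high, and so had to differ. Its log2 value there also depends on the added 1. In the clone, 2.59% of all genes tested were called higher and 0.949% lower.

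**Figure D2:**
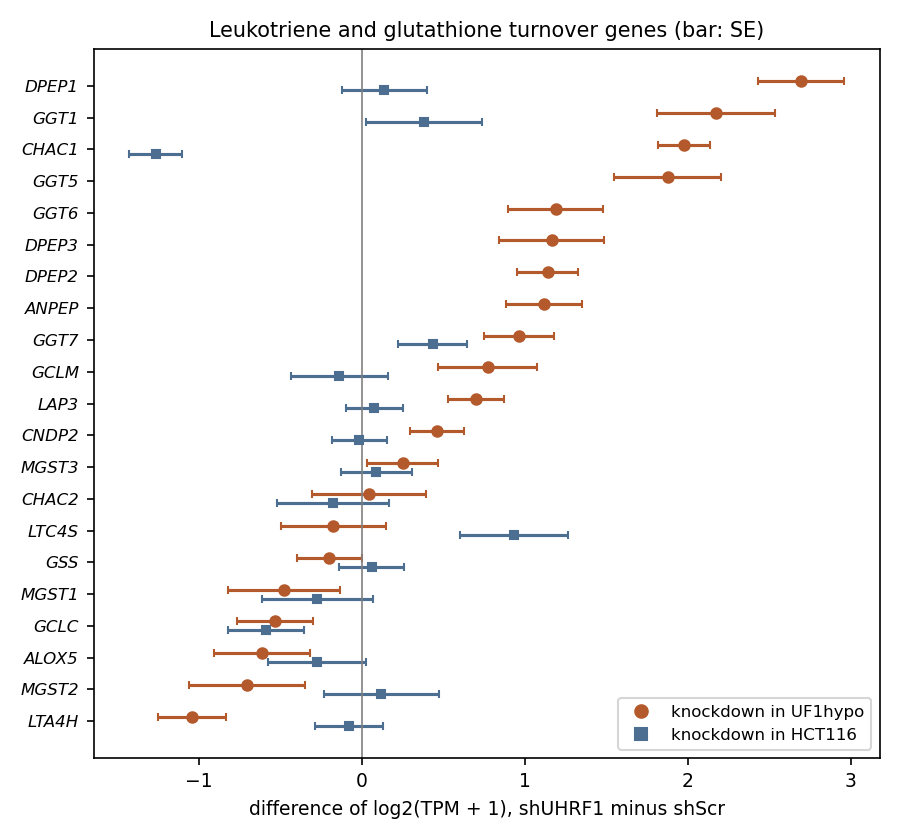
Differences of log2(TPM + 1), shUHRF1 minus shScr (horizontal axis), of DPEP1 and of the tested genes of leukotriene and glutathione turnover and the other membrane dipeptidases, for the knockdown in UF1hypo (circles) and in HCT116 (squares). Bars are standard errors, and genes without a square were not tested in HCT116. DPEP1 at 2.70 and GGT1 at 2.17 are at the top in UF1hypo, LTA4H at -1.04 is at the bottom, and CHAC1 lies on opposite sides of 0 in HCT116 and UF1hypo.

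DPEP1, CEACAM5, CEACAM6 and CEACAM7 depend on the GPI anchor, and none of the genes of its synthesis and attachment passed the test in any comparison. All 29 genes of the list were tested in the 4 comparisons, and 0 were called by limma. The share called of all genes was 0.0708% in HCT116, and 7.39% higher and 1.14% lower in UF1hypo. It was 4.54% higher and 0.559% lower in the difference, and 2.59% and 0.949% in the clone. At such shares, 0 calls among 29 genes say little about the list. An unadjusted p below 0.05 was found for 1 gene of the list in the knockdown in HCT116, 4 in UF1hypo, 1 in the difference and 1 in the clone. The list median was -0.16 in HCT116, -0.05 in UF1hypo and -0.10 in the clone, against -0.03, 0.04 and -0.05 for all genes.

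The signalling partners of CEACAM1 were a list of 12 genes, of which 11 were tested in each comparison. The only gene called was LGALS9 (galectin-9, a sugar-binding ligand of HAVCR2, the receptor that CEACAM1 also binds). It was at 1.04 and 0.789 TPM with shScr and 0.170 and 1.66 with shUHRF1 in HCT116, and 5.71 and 8.52 with shScr and 59.8 and 47.2 with shUHRF1 in UF1hypo. It was higher in the clone (log2 difference 2.07, SE 0.373, adjusted p = 0.0161, 0.000588 to 0.152 over the alternatives) and rose with the knockdown in UF1hypo (2.76, SE 0.377, adjusted p = 0.00234, 0.000423 to 0.0395), by 2.59 and 2.93 without UF1hypo shUHRF1 replicate 1 and 2. Like CEACAM1 it was higher in each UF1hypo group than in either HCT116 group. In the clone the call was lost when any 1 library of HCT116 shScr or of UF1hypo shScr was left out. It was also lost there with the pseudocount of 0.1 and without a filter. The phosphatases PTPN6 and PTPN11, the kinase SRC and beta-catenin (CTNNB1) were not called in any comparison. HAVCR2 was too low to test, at most 0.159 TPM in any library. Of all genes tested, 7.39% were called higher in the knockdown in UF1hypo, 4.54% in the difference and 2.59% in the clone. The list medians were -0.07 and 0.07 for the hairpin in HCT116 and in UF1hypo and 0.08 for the clone, against -0.03, 0.04 and -0.05 for all genes.

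Of 12 transcription factors of the intestine and of the interferon response, 10 were tested in each comparison. HNF4A, a nuclear receptor that drives the enterocyte programme, was at 6.90 and 6.81 TPM with shScr and 7.22 and 8.43 with shUHRF1 in HCT116, and 0.313 and 0.0545 with shScr and 2.67 and 1.2 with shUHRF1 in UF1hypo. The HCT116 libraries lay above every UF1hypo library, and the knockdown libraries of UF1hypo lay above their controls. In the clone comparison HNF4A entered the test only through HCT116 shScr, where it was high, and so had to differ. HNF4A was lower in the clone (log2 difference -2.74, SE 0.282, adjusted p = 0.000979, 2.17e-06 to 0.0176 over the alternatives) and rose with the knockdown in UF1hypo by 1.27 (SE 0.275, adjusted p = 0.0187, 0.00226 to 0.132). Its call in UF1hypo, where it entered the test only through UF1hypo shUHRF1, was lost without either library of UF1hypo shScr or without UF1hypo shUHRF1 replicate 1. The difference was 0.90 without the latter and 1.64 without replicate 2. HNF4G, its paralogue, was lower in the clone as well (-1.17, SE 0.257, adjusted p = 0.0388, 0.00341 to 0.265) and rose in UF1hypo by 1.01 (SE 0.248, adjusted p = 0.0319, 0.0136 to 0.211). The HNF4G call in the clone was lost without any 1 library of HCT116 or of UF1hypo shScr, and that in UF1hypo without any shScr library or UF1hypo shUHRF1 replicate 2, where it was 0.82, against 1.19 without replicate 1. CDX2, USF1, USF2, SP1, IRF1, SOX9, KLF4 and KLF5 were not called in any comparison. In HCT116 none of the 10 was called by limma or had an unadjusted p below 0.05. In the difference of the knockdown effects none of the 10 was called either, and 3 had an unadjusted p below 0.05. The share called of all genes was 0.0708% in HCT116, and 7.39% higher and 1.14% lower in UF1hypo. It was 4.54% higher and 0.559% lower in the difference, and 2.59% and 0.949% in the clone. The median of the list in UF1hypo was 0.44 against 0.04 for all genes.

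Since CEACAM5, CEACAM6 and CEACAM7 are genes of the mature colonocyte, 18 other genes of that state were followed. Of these, 4 or 5 could be tested in a comparison. KRT20, a keratin of differentiated colonocytes, was at 1.66 and 1.56 TPM with shScr and 1.88 and 2.11 with shUHRF1 in HCT116, and 9.28 and 9.06 with shScr and 75.01 and 110.7 with shUHRF1 in UF1hypo. It was higher in the clone (log2 difference 1.96, SE 0.227, adjusted p = 0.00188, 6.79e-06 to 0.0319 over the alternatives) and rose with the knockdown in UF1hypo (3.18, SE 0.228, adjusted p = 7.51e-05, 2.02e-06 to 0.00390), by 3.46 and 2.90 without UF1hypo shUHRF1 replicate 1 and 2. CA2, a carbonic anhydrase of the same cells, went the other way in the clone, from 35.9 and 41.4 to 10.7 and 6.98 TPM (-2.04, SE 0.227, adjusted p = 0.00156, 7.70e-06 to 0.0319). PHGR1, a short protein of the gut epithelium, was called higher in UF1hypo (1.32, SE 0.363, adjusted p = 0.0479, 0.00159 to 0.222). It entered the test only through UF1hypo shUHRF1, and its call held in 5 of 18 alternatives and was lost without any 1 library of HCT116 or of UF1hypo shScr. The PHGR1 difference was 1.93 without UF1hypo shUHRF1 replicate 1, and without replicate 2 the gene was too low to test. In HCT116 0 of 4 genes were called by limma and 0 had an unadjusted p below 0.05. In the difference of the knockdown effects KRT20 was the only call among 5 genes tested. The share called of all genes was 0.0708% in HCT116, and 7.39% higher and 1.14% lower in UF1hypo. It was 4.54% higher and 0.559% lower in the difference, and 2.59% and 0.949% in the clone. The colonocyte list thus held both a gene that moved as CEACAM1 did in the clone (KRT20) and a gene that moved as DPEP1 did there (CA2).

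The genes next to each member on the chromosome were compared with it, 5 protein-coding genes on each side. Around DPEP1, 9 of 10 neighbours were tested in each comparison and 0 were called by limma in any of the 4. Of all genes tested, 7.39% were called higher and 1.14% lower in the knockdown in UF1hypo, and 2.59% and 0.949% in the clone. The shares were 4.54% and 0.559% in the difference, and 0.0708% in either direction in HCT116. At such shares, 0 calls among 9 genes say little. An unadjusted p below 0.05 was found for 3 of these neighbours in the knockdown in UF1hypo, 2 in the difference and 0 in the other comparisons. Their log2 differences in the knockdown in UF1hypo ran from -0.40 (RPL13) to 0.91 (VPS9D1), against 2.70 for DPEP1. In the clone against HCT116 they ran from -0.36 (ANKRD11) to 0.57 (VPS9D1), against -4.45 for DPEP1. The nearest ones, CPNE7 on one side and CHMP1A 2.36 kb away on the other, lay at 171.6 to 313.4 and 163.6 to 313.8 TPM. Around CEACAM1, 0 neighbours were called by limma or had an unadjusted p below 0.05 in any comparison, and the CEACAM8 and pregnancy-specific glycoprotein genes on its other side (PSG3, PSG8, PSG1 and PSG6) were too low to test. Around CEACAM19, 7 were tested in UF1hypo, from -0.23 (BCAM) to 0.83 (NECTIN2), 0 were called by limma and 2 had an unadjusted p below 0.05. Over the 41 neighbours of all members, of which 25 were tested in UF1hypo, B3GNT8, a glycosyltransferase gene near CEACAM7, was called. It was at 1.21 and 0.883 TPM in UF1hypo shScr and at 5.58 and 4.52 in UF1hypo shUHRF1 (log2 difference 1.56, SE 0.217, adjusted p = 0.00252, 0.00132 to 0.0370 over the alternatives), which was 1.44 and 1.69 without UF1hypo shUHRF1 replicate 1 and 2. The median of the neighbours tested was 0.21 in UF1hypo and 0.05 in the clone, against 0.04 and -0.05 for all genes.

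The genes most alike in pattern were taken as those with the highest Pearson's r of log2(TPM + 1) with a member over the 8 libraries, among 6936 genes that exceeded 1 TPM and spanned at least 1 on the log2 scale. The 8 points fall into 4 groups of 2 libraries, so r reflects mostly the group levels and is given as a description. For DPEP1 they were HNF4A (r = 0.977), SNTG2 (0.971), IRS1 (0.970), STON2 (0.967) and KCND1 (0.965). Each of these was high in both HCT116 groups, lowest in UF1hypo shScr and intermediate in UF1hypo shUHRF1. SNTG2, for example, averaged 4.71, 5.75, 0.151 and 2.51 TPM in HCT116 shScr, HCT116 shUHRF1, UF1hypo shScr and UF1hypo shUHRF1. For CEACAM1 they were PABIR3 (0.995), TOGARAM2 (0.994), APOL6 (0.990), TIMP2 (0.990) and APOBEC3F (0.989), all of which had their mean TPM increase in the order HCT116 shScr, HCT116 shUHRF1, UF1hypo shScr and UF1hypo shUHRF1. TIMP2, an inhibitor of matrix metalloproteinases, averaged 44.1, 60.1, 100.1 and 205.4 TPM in that order. For CEACAM19 they were MYRF (0.962), CLEC11A (0.945), ST3GAL3 (0.945), CDHR5 (0.944) and SRC (0.933). The 3 lists had no gene in common, and CEACAM1 and DPEP1 had r = -0.49 with each other over the same 8 libraries.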

How the data were processed

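RNA was measured by polyA RNA-seq in 8 libraries, 2 in each of 4 groups. According to the paper's methods and the submitters' processing notes, the authors used Fastp for trimming, HISAT2 2.0.4 for alignment to GRCh38 and StringTie 2.1.4 for gene abundances. Pools were harvested at 1 of 2 times after infection, and which applies here is not given in the sources used here, nor is the annotation release or whether counting used strand. Coverage in the authors' tables is the mean read coverage per base and is not scaled for depth. The FPKM values were scaled by the authors for length and aligned bases, and the TPM values were scaled by the authors for length and to 1000000 a library. No counts are given, so no counting interval was formed, and DESeq2 (the authors' own test) could not be applied. Aligned gigabases were taken as the highest coverage to FPKM ratio of a library. The 10 most abundant genes took 7.89% to 14.1% of a library.

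Records of a gene identifier were summed, and 60507 of 60649 identifiers matched GENCODE version 44. Protein-coding genes were fitted as log2(TPM + 1) with limma 3.58.1 (R 4.3.3), moderated variances following mean expression, with the 4 groups as terms and 4 residual degrees of freedom. A log2 difference is on the log2(TPM + 1) scale and understates the change of low genes. A gene entered a comparison if any of its libraries exceeded 1 TPM, and was called at a Benjamini-Hochberg adjusted p below 0.05 over all genes tested and an absolute log2 difference above 1. Leaving out 1 library leaves its group with 1 library, which is assumed to vary like the other groups. The fit was tested on simulated data. Tables, alignments and figures were made in Python 3.11.15 (Biopython 1.88, pandas 2.3.3, numpy 2.4.6, matplotlib 3.10.9).

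The members and the gene lists were chosen with earlier results of these data known. The genes named are the members, UHRF1, every other CEACAM and dipeptidase gene, the called genes of the other lists and of the 5 neighbours on each side (at most the 4 largest a list and comparison), and the 5 genes most alike in pattern. Alternatives were a pseudocount of 0.1, no filter and a mean filter, FPKM, median-ratio scaling, no variance trend, a replicate block, a correction for GC content and length in 10 bins, the libraries of a comparison alone, each library left out and the largest record of a gene identifier. Coverage in place of TPM, a crossed replicate block and the alternatives for named genes outside the members were chosen after seeing the data.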

Additional observations from a re-analysis of the deposited data

Results flagged for a closer look

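DPEP1 was selected with these values known, so its difference between the effects of the UHRF1 hairpin in UF1hypo and in HCT116, 2.56 on the log2 scale, is a description. For CHAC1, KRT20 and LGALS9 the difference itself was called, as the interaction term of the limma fit with Benjamini-Hochberg adjustment over 13781 genes. Their lists were also written with earlier results of these data known, so these adjusted p-values are not independent of that choice. CHAC1 differed by 3.24 (adjusted p = 0.000208, 4.61e-05 to 0.00489 over the alternatives), with lower values in both HCT116 shUHRF1 libraries and higher values in both UF1hypo shUHRF1 libraries than in their controls. KRT20 differed by 2.98 (adjusted p = 0.00179, 5.21e-05 to 0.0231). LGALS9 differed by 2.88 (adjusted p = 0.0196, 0.00443 to 0.123), a call lost without HCT116 shScr replicate 1 or 2, HCT116 shUHRF1 replicate 1 or UF1hypo shScr replicate 1. The LGALS9 call was also lost with the pseudocount of 0.1. Without UF1hypo shUHRF1 replicate 1 and 2 in turn, the differences were 3.17 and 3.31 for CHAC1, 3.26 and 2.70 for KRT20, and 2.71 and 3.04 for LGALS9.

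The remaining differences were called in 2 of the 8 fits that left out 1 library, those without a library of UF1hypo shUHRF1. They were 1.64 for B3GNT8 (adjusted p = 0.0206, 0.00726 to 0.117) and 1.14 for CDH1, the epithelial cadherin (adjusted p = 0.0195, 0.00107 to 0.128). In those 2 fits, without replicate 1 and without replicate 2, B3GNT8 was at 1.51 and 1.77, and CDH1 at 1.197 and 1.08. The differences of 1.67 for PSG9, 1.32 for PSG4 and 1.18 for DPEP2 were called in the same 2 fits. These 3 genes entered the test only through UF1hypo shUHRF1, where they were high, and so had to differ: their values are descriptions, and they depend on the added 1. The cause of the dependence on single libraries was not tested.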

How the results depend on the processing

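The members' log2 differences reversed for none of the called values under any alternative. Among values that were not called, CEACAM19 in the knockdown in HCT116 turned negative, to -0.08 at the lowest, in 2 of 18 alternatives. The 24 group means with the largest record of an identifier stayed within 1 SD of those reported. For genes outside the members, mostly losses of a call with a left-out library are named. Several of those calls were also lost under other alternatives, such as FPKM, the GC content and length correction or the 4 libraries alone.

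In the knockdown in HCT116 the number of genes called was 9. It was 30 with the pseudocount of 0.1, 2 without a filter, 3 with median-ratio scaling, 5 without a variance trend, 75 with the GC content and length correction and 89 with the 4 libraries alone. With 1 library left out it was 0 to 100: 99 and 100 without UF1hypo shUHRF1 replicate 1 and 2, and 0 or 1 without any other. In the knockdown in UF1hypo it was 1162, 749 with FPKM and 563 with the 4 libraries alone. With 1 library left out it was 655 (without UF1hypo shScr replicate 1) to 2255 (without UF1hypo shUHRF1 replicate 2). In the difference it was 702, 448 with the pseudocount of 0.1, and 171 to 2142 with 1 library left out: 1073 and 2142 without UF1hypo shUHRF1 replicate 1 and 2, and at most 271 without any other. In the clone it was 455, and 149 to 594 with 1 library left out, at most 190 without any library of the shScr groups.

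The count of members called was 0 in the knockdown in HCT116 in all fits. It fell from 2 to 1 in the knockdown in UF1hypo with FPKM, median-ratio scaling, the GC content and length correction, the 4 libraries alone and coverage, and was 1 to 2 with 1 library left out. It fell from 1 to 0 in the difference with coverage and was 0 to 1 with 1 library left out. It fell from 2 to 1 in the clone without a filter, with FPKM, with the replicate block and with coverage, and was 1 to 2 with 1 library left out. In each fall from 2 to 1 the gene that lost its call was CEACAM1.

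Replicate numbers did not pair the libraries. The correlation of same-numbered deviations ran from -0.402 (the UF1hypo groups) to 0.0547, so the replicate block shares only a number. With the replicate block, 1 gene was called in the knockdown in HCT116, 1110 in UF1hypo, 471 in the difference and 369 in the clone. With the numbers of UF1hypo shUHRF1 exchanged, 1207 genes and 2 members were called in the knockdown in UF1hypo. The depth of a single gene is unknown, which limits what can be said of values near 0.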
